A study of Mus musculus with 4 samples.

Results

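The genes described here are 42 genes of DNA repair and damage checkpoint signalling, taken as a named list in 6 pathways. Of these, 41 were measured, among 19938 genes in all, and Xrcc2 is not analysed here. RNA was measured on 4 Affymetrix arrays of sorted C57BL/6 mouse bone marrow cells of the LSK type, which lack lineage markers and carry Sca-1 and Kit, a population that holds the blood stem cells and early progenitors. There were 2 arrays of Hdac3-null LSK/Flt3- cells (Vav-Cre/Hdac3Flox/-, where the Vav promoter drives the Cre recombinase in blood cells). There was 1 array each of wild-type LSK/Flt3- and LSK/Flt3+ cells, where Flt3 is the surface receptor used to separate the fractions. Each array held RNA of cells pooled from 5 to 30 mice, and the labels used here give no ages. The labels do not say whether the null arrays came from separate pools, so the p-values below reflect the spread of 2 arrays that may be technical replicates.

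Cells repair broken DNA by several routes. Homologous recombination copies an intact sister strand, and end joining ligates broken ends directly. The Fanconi pathway unhooks crosslinks between the strands, and mismatch and excision repair replace wrong or damaged bases. Checkpoint kinases sense the damage and hold the cell cycle. Blood stem cells depend on these routes, and inherited defects in the Fanconi genes cause marrow failure. Hdac3 is a histone deacetylase, an enzyme that removes acetyl groups from chromatin.

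Promoter sequence was read for the 35 members with a window in the RefSeq table (GRCm38.p6), from 250 bases before the listed start to 50 after it. A gene was counted when any of its windows held the string on either strand. The string TTTCCCGC, a binding sequence of the E2F factors that act on S phase genes, was in windows of 8 of 35 members (22.86%). It was in 1.61% of 17491 protein-coding genes and 1.24% of all 27025 genes with a window. A second E2F string, TTTGGCGC, was in the window of 1 member (2.86%), against 0.73% of protein-coding genes and 0.58% of all genes. The 9 sites are shown because they are the sequence feature that most set the members' shares above those of other genes among the strings searched. Capitals mark the string, each site is read on the strand of the string, and 10 bases stand on either side.

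Bard1, chr1:71103164-71103191, minus strand: cgccgctcagTTTCCCGCtcaggaagtt
Brca2, chr5:150522443-150522470, minus strand: tgtgtgtctgTTTCCCGCtgtggcctaa
Chek2, chr5:110839821-110839848, minus strand: gacgtcttggTTTCCCGCggctaatccc
Fancg, chr4:43010336-43010363, minus strand: ttcttttcagTTTCCCGCggaaccgtct
Mdc1, chr17:35841472-35841499, plus strand: cttcagcctgTTTCCCGCcggtagccgc
Msh6, chr17:87975055-87975082, plus strand: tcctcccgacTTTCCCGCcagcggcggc
Rad51c, chr11:87404942-87404969, plus strand: accccttgctTTTCCCGCcctcgcgggg
Xrcc6, chr15:82016313-82016340, minus strand: cccactcgcaTTTCCCGCttccaccccc
Msh3, chr13:92355188-92355215, minus strand: tgccgtcaagTTTGGCGCgaaatcgcag

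Of the other strings searched, NRF1 GCGCATGC was in 11.43% of members against 3.93% of protein-coding and 3.05% of all genes. ETS CCGGAAGT was in 11.43% against 5.69% and 4.31%. The CCAAT box was in 48.57% against 42.31% and 41.06%, and CHR TTTGAA was in 8.57% against 18.47% and 20.23%. None of these strings contains another. A match is a description of letters and not of binding. The median ratio of observed to expected CpG was 0.893 for members, 0.609 for protein-coding genes and 0.415 for all genes. The members with an E2F string did not stand apart in RNA by value. Their median difference between null and wild-type LSK/Flt3- cells was -0.02 on the log2 scale (range -0.27 to 0.56, 9 genes), against 0.09 (range -1.17 to 0.60) for the 26 members with a window and no string.

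The labels were first set against marker genes. Hdac3, the deleted gene, had a log2 level of 5.71 on null replicate 1, of 5.04 on replicate 2, of 6.18 in the LSK/Flt3- wild type and of 6.33 in the LSK/Flt3+ wild type. It was lower on both null arrays, though whether its probe set lies in the deleted part is not known here. Kit was high on all arrays (10.77, 10.36, 10.25 and 10.11 in the same order), and Sca-1, encoded by Ly6a, was not measured. Flt3, whose surface protein separated the fractions, was at 7.84 and 7.02 on the null arrays, 9.18 in wild-type LSK/Flt3- and 10.07 in LSK/Flt3+ cells. The wild-type fractions thus differed by 0.89 in Flt3 RNA, and the null arrays lay below both. Slamf1, a stem cell surface marker, was at 8.52 and 8.17 on the null arrays against 6.16 and 5.08, higher by 2.18 (limma adjusted p = 0.174) and 3.27 (limma adjusted p = 0.00506). Of the other gate genes measured, Cd48 was also higher on both null arrays (10.41 and 10.54 against 9.53 and 10.15). Procr was higher too (6.24 and 5.75 against 5.63 and 5.46), and Cd34 was lower (9.77 and 9.90 against 10.34 and 10.58). The mean of 7 markers of mature T, B and NK cells lay between 4.79 and 5.18. Nkg7 of that list stood well above this mean, at 8.58 and 10.06 on the null arrays against 8.21 and 8.76. The mean of 8 macrophage markers was 6.84 in wild-type LSK/Flt3+ cells against 4.89 to 5.04 on the other arrays, and all 8 were higher there than in wild-type LSK/Flt3- cells. The mean of 6 erythroid markers was 6.49 on null replicate 1 against 7.87 to 8.40 elsewhere, and that of 9 early lymphoid markers was 5.10 and 4.70 on the null arrays against 5.85 and 6.54. The mean of 10 granulocyte-monocyte progenitor markers was 7.57 and 8.05 on the null arrays against 6.80 and 7.41. Xist, the RNA of the inactive X chromosome of female cells, stood at 10.84 and 9.67 on the null arrays. It was at 4.23 and 3.90 on the wild-type arrays. This split ran along the same line as genotype, so sex and genotype cannot be told apart in any null comparison below. The part of these differences in the values below was not tested. In such bulk samples, fewer cells of a type and less RNA per cell cannot be told apart.

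Across the whole list the null cells differed little from the wild type. No member passed limma's adjusted p of 0.05 against wild-type LSK/Flt3- cells, where 0.0201% of all genes did (4 genes), or against LSK/Flt3+ cells, where 0.316% did (63 genes). At an unadjusted limma p under 0.05, 1 of 41 members was past the threshold against LSK/Flt3- cells (2.40% of all genes) and 0 of 41 against LSK/Flt3+ cells (3.44%). At least 2-fold on both null arrays, there was 1 member against LSK/Flt3- (0.632% of all genes) and 0 against LSK/Flt3+ (1.34%). The single gene was Xrcc5 each time, and it was lower in the null cells. Every adjusted p of a member was 1. The median standard error of such a difference over all genes was 0.34 on the log2 scale, so differences below that size were within the error.

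**Figure D1:**
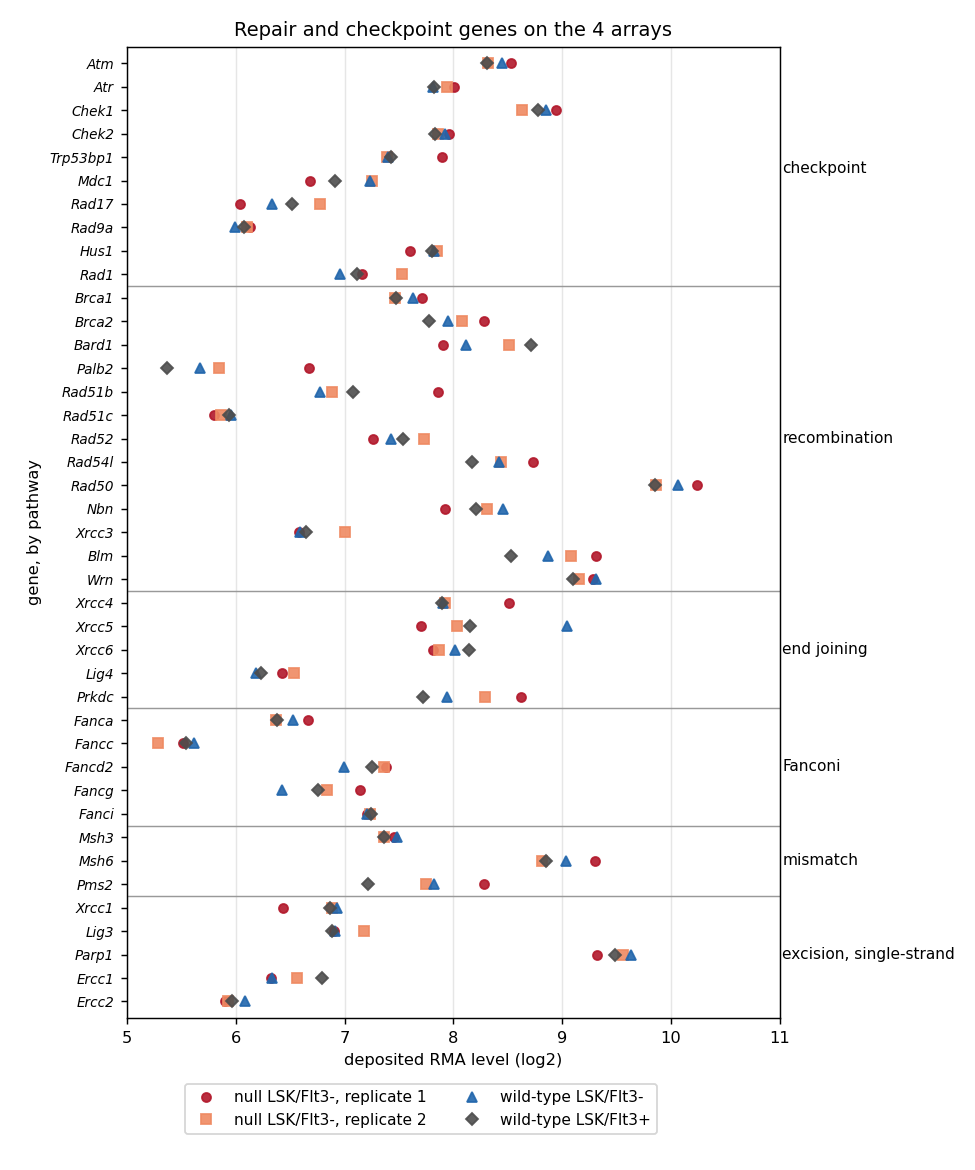
Log2 level of each of the 41 measured members on the 4 arrays, by pathway. Each point is 1 array. Xrcc5 in wild-type LSK/Flt3- cells (9.04) stands apart from its other arrays (7.70 to 8.15), while Fanci spans only 0.04.

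The members' median difference was 0.07 against LSK/Flt3- cells, with 23 higher and 18 lower, while the median of all genes was 0.09. Against LSK/Flt3+ cells it was 0.11, with 27 higher and 14 lower, and the median of all genes was 0.05. Of all genes, 65.04% were higher in null than in LSK/Flt3- cells and 56.88% higher than in LSK/Flt3+ cells. Among genes with a mean level of at least 6 these shares were 50.69% and 51.69%, against 59.46% and 70.27% of 37 members. The counts of higher and lower genes by pathway below stand beside the same shares of all genes. Both comparisons share the null arrays. Both null arrays lay above both wild-type arrays for 12 of 41 members (29.27%), against 23.0% of all genes. These were Atr, Rad9a, Rad1, Brca2, Palb2, Rad54l, Blm, Xrcc4, Lig4, Prkdc, Fancd2 and Fancg. Both lay below for 5 members (12.2%), namely Rad51c, Xrcc5, Xrcc6, Fancc and Ercc2, against 11.6% of all genes. The 24 other members overlapped between null and wild type. Among genes with a mean level of at least 6, the share above both was 29.73% of 37 members against 18.44% of 8418 genes, and the share below both was 5.41% against 16.86%. The members' range over the 4 arrays had a median of 0.42, or 1.34-fold, against 0.46 for all genes, from 0.04 for Fanci to 1.34 for Xrcc5 (2.53-fold).

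**Figure D2:**
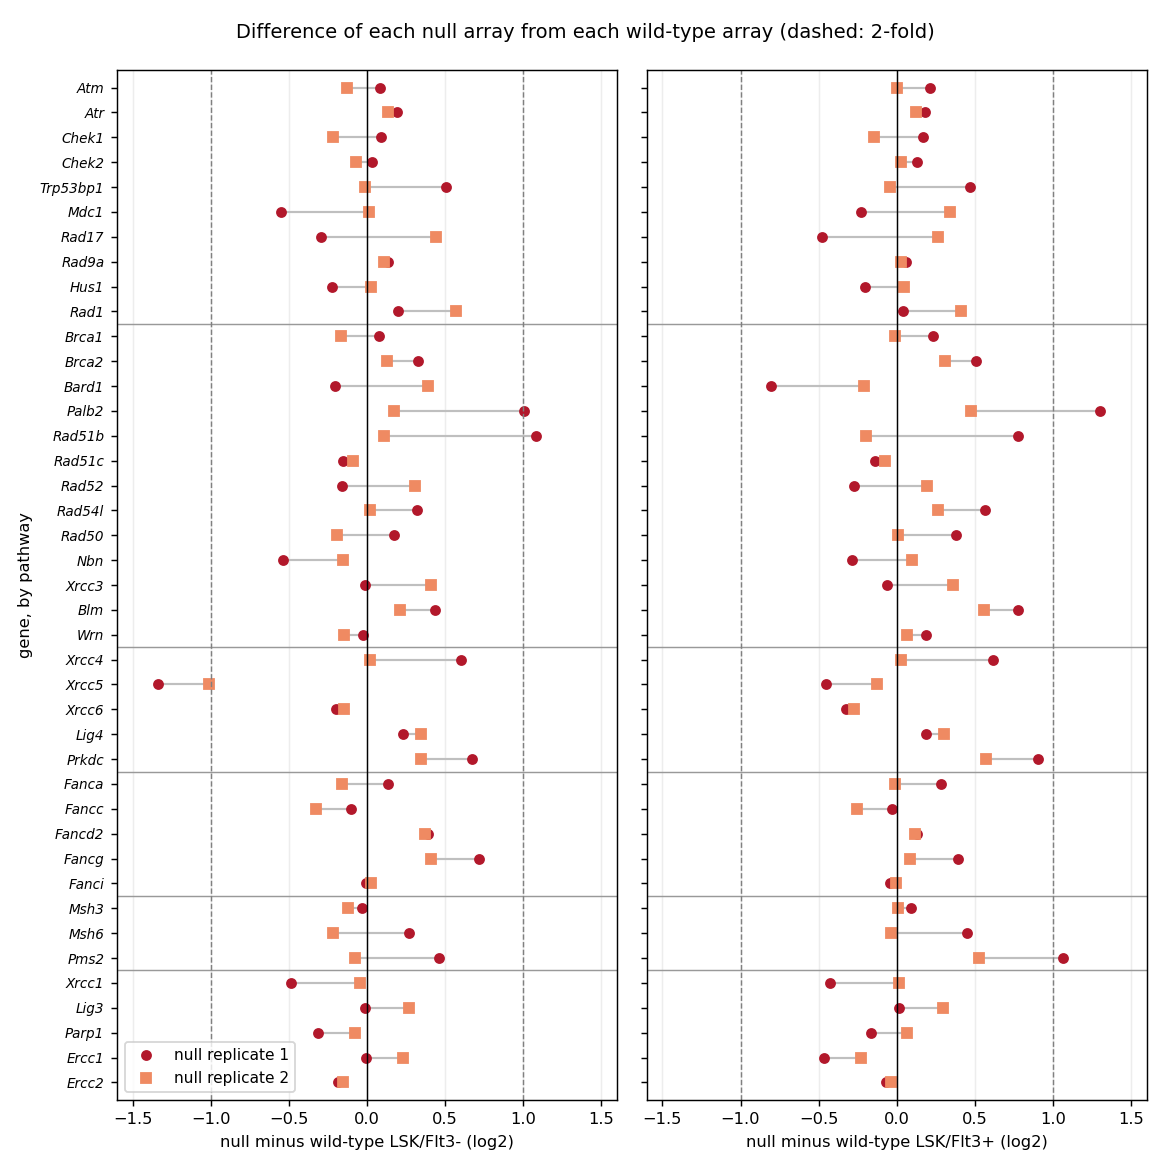
Difference of each null array from each wild-type array on the log2 scale, for each member by pathway. Points are null replicates 1 and 2, grey lines join them and dashed lines mark 2-fold. Xrcc5 lies past the 2-fold line on both null arrays (-1.34 and -1.01) against LSK/Flt3- cells.

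End joining held the member with the largest difference. Xrcc5 encodes Ku80, which with Xrcc6 (Ku70) forms the ring that binds broken ends. Xrcc5 stood at 7.70 and 8.03 on the null arrays, 9.04 in wild-type LSK/Flt3- and 8.15 in LSK/Flt3+ cells. Both null arrays lay below both wild-type arrays, but LSK/Flt3+ was close to them and LSK/Flt3- was high alone. The null cells were lower than LSK/Flt3- by -1.17 ± 0.37 (SE; limma unadjusted p = 0.00931, adjusted p = 1), so that the wild type was 2.26-fold higher. Against LSK/Flt3+ cells the difference was -0.29, and the wild-type arrays themselves differed by -0.89. The value thus rests on the single LSK/Flt3- array. Xrcc6 stood at 7.81 and 7.87 on the null arrays, 8.01 in LSK/Flt3- and 8.14 in LSK/Flt3+ cells. It too was lower on both null arrays, by -0.17 and -0.30, which is within the error.

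The upstream sequences of this pair are shown because they encode the subunits of 1 complex and differ in base composition. Each run gives the 250 bases before the listed start, with capitals for the only searched string found there, a CCAAT box on the minus strand for Xrcc5 and the E2F string on the minus strand for Xrcc6. The CpG ratio of the window was 0.527 for Xrcc5 and 1.04 for Xrcc6.

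Xrcc5, chr1:72307171-72307420, plus strand: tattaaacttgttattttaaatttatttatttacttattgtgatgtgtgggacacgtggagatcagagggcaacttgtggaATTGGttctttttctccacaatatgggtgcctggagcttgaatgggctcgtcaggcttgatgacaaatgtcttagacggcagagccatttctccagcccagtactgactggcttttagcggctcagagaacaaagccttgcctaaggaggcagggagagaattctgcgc
Xrcc6, chr15:82016119-82016368, plus strand: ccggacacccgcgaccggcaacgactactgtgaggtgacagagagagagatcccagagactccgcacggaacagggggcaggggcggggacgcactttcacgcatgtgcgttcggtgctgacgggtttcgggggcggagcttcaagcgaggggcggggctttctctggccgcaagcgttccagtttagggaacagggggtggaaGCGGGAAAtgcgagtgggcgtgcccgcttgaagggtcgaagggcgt

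The 3 other end-joining genes were higher on both null arrays than on both wild-type arrays. Prkdc encodes the catalytic subunit of the DNA-dependent kinase that the Ku ring recruits. It stood at 8.62 and 8.29 on the null arrays, 7.95 in LSK/Flt3- and 7.72 in LSK/Flt3+ cells, a difference of 0.51 ± 0.37 (SE) and 0.74 (limma unadjusted p = 0.072 for the latter, adjusted p = 1). Xrcc4 and Lig4 form the ligase that closes the break. Xrcc4 was at 8.51 and 7.92 against 7.91 and 7.89, so null replicate 2 was level with the wild type and replicate 1 was above it. Lig4 was at 6.42 and 6.54 against 6.19 and 6.23. The pathway's median difference was 0.29 and 0.25 against the 2 wild-type fractions, with 3 higher and 2 lower in each.

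Homologous recombination had 13 members, 8 higher and 5 lower against LSK/Flt3- cells (median 0.09) and 9 higher and 4 lower against LSK/Flt3+ cells (median 0.15). Palb2, which bridges Brca1 and Brca2, stood at 6.68 and 5.84 on the null arrays, 5.67 in LSK/Flt3- and 5.37 in LSK/Flt3+ cells. Replicate 1 was well above the others and replicate 2 just above them. The differences were 0.59 ± 0.40 (SE) and 0.89 (limma unadjusted p = 0.0507, adjusted p = 1). Blm, a RecQ helicase that dissolves joint molecules, was at 9.31 and 9.08 on the null arrays, 8.87 in LSK/Flt3- and 8.53 in LSK/Flt3+ cells. It was higher on both null arrays, by 0.32 ± 0.35 (SE) and 0.67 (limma unadjusted p = 0.087, adjusted p = 1). Wrn, the other RecQ helicase of the list, was at 9.28 and 9.16 against 9.31 and 9.10, and the groups overlapped.

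Brca2, which loads the recombinase on resected ends, was at 8.28 and 8.08 on the null arrays against 7.95 in LSK/Flt3- and 7.78 in LSK/Flt3+ cells. Rad54l, a translocase of strand exchange, was at 8.73 and 8.44 against 8.41 and 8.17. Both were above the wild type on both arrays, by 0.41 against LSK/Flt3+ cells in each case. Brca1 and Bard1 form a ubiquitin ligase. Brca1 was at 7.71 and 7.47 against 7.63 and 7.48, with overlap. Bard1 was at 7.91 and 8.51 on the null arrays, 8.12 in LSK/Flt3- and 8.72 in LSK/Flt3+ cells, so LSK/Flt3+ was highest (difference -0.51). Bard1 had 3 probe sets, and the others gave -0.80 and 0.07 for the same comparison, so they disagreed.

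The paralogs of the recombinase did not move together. Rad51b was at 7.86 and 6.89 on the null arrays, 6.77 in LSK/Flt3- and 7.08 in LSK/Flt3+ cells. Replicate 1 stood alone, and the difference of 0.60 ± 0.44 (SE) against LSK/Flt3- cells was 0.11 on replicate 2 alone. Rad51c was at 5.80 and 5.87 against 5.96 and 5.94, and Xrcc3 was at 6.58 and 7.00 against 6.59 and 6.64. Rad52, an annealing protein, was at 7.26 and 7.73 against 7.42 and 7.54. In the complex that senses and trims ends, Rad50 was at 10.23 and 9.86 against 10.06 and 9.85, with overlap. Nbn, its partner, was at 7.92 and 8.31 against 8.46 and 8.21, a difference of -0.34 against LSK/Flt3- cells. A second Nbn probe set gave 0.32, the opposite sign.

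**Figure D3:**
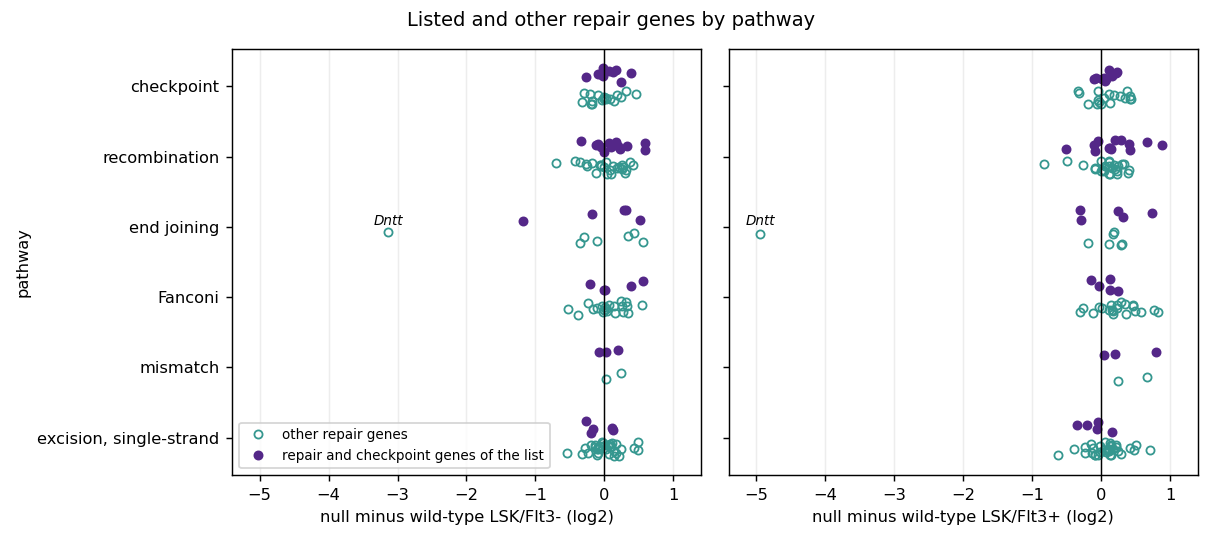
Difference on the log2 scale of null minus each wild-type fraction by pathway, as the mean of the null arrays. Filled points are the members and open points are other repair genes. Dntt lies far to the left in both panels (-3.14 and -4.95), while the members lie between -1.17 and 0.89.

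The 10 checkpoint members had medians of 0.03 against LSK/Flt3- cells (5 higher, 5 lower) and 0.07 against LSK/Flt3+ cells (8 higher, 2 lower). Atm and Atr are the kinases that respond to breaks and to stalled forks. Atm was at 8.52 and 8.32 on the null arrays against 8.44 and 8.31, and Atr at 8.00 and 7.95 against 7.81 and 7.82. Only Atr of the pair lay above the wild type on both arrays, by 0.16 in each comparison, which is within the error. Chek1 and Chek2, the kinases they act on, overlapped: Chek1 was at 8.94 and 8.63 against 8.85 and 8.78, and Chek2 at 7.96 and 7.85 against 7.92 and 7.83.

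Rad9a, Hus1 and Rad1 form a clamp on damaged DNA that Rad17 loads. Rad1 was at 7.16 and 7.53 on the null arrays against 6.96 and 7.12, a difference of 0.38 against LSK/Flt3- cells. Rad9a was at 6.13 and 6.11 against 6.00 and 6.08, and Hus1 at 7.60 and 7.85 against 7.82 and 7.80. Rad1 and Rad9a were thus above the wild type on both null arrays, and Hus1 overlapped. Rad17 was at 6.04 and 6.78 against 6.33 and 6.52, so its null arrays bracketed the wild type. Trp53bp1, which limits the trimming of ends, was at 7.90 and 7.39 against 7.40 and 7.43, with replicate 1 alone high. Mdc1, a scaffold at breaks, was at 6.69 and 7.25 against 7.24 and 6.91, with replicate 1 lowest.

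The Fanconi members had medians of 0.01 and 0.12. Fancg, of the core complex, was at 7.14 and 6.84 on the null arrays, 6.43 in LSK/Flt3- and 6.75 in LSK/Flt3+ cells, a difference of 0.56 ± 0.36 (SE) and 0.24. Fancd2 and Fanci form the pair that the core complex ubiquitinates. Fancd2 was at 7.38 and 7.37 against 6.99 and 7.25, and Fanci at 7.20 and 7.24 against 7.21 and 7.24. Fancg and Fancd2 were above the wild type on both null arrays, and Fanci was the member that varied least over the 4 arrays. Fanca was at 6.66 and 6.37 against 6.53 and 6.38, with overlap, and Fancc at 5.51 and 5.29 against 5.61 and 5.54, below on both null arrays.

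In mismatch repair all 3 members were lower in wild-type LSK/Flt3+ than in LSK/Flt3- cells. Pms2, an endonuclease subunit, was at 8.28 and 7.75 on the null arrays, 7.82 in LSK/Flt3- and 7.22 in LSK/Flt3+ cells. The LSK/Flt3+ array was low, and the null cells differed from it by 0.80 ± 0.39 (SE; limma unadjusted p = 0.065, adjusted p = 1) but from LSK/Flt3- by 0.19. Msh6, a mismatch sensor, was at 9.30 and 8.82 against 9.03 and 8.85, and Msh3, which senses larger loops, at 7.45 and 7.36 against 7.49 and 7.36. Both overlapped.

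The excision members were higher on null replicate 2 than on replicate 1 in all 5 cases, as were 18 of all 41 members. So were 6970 of 19938 genes, and 4479 of 8418 genes with a mean level of at least 6. The median differences of the excision members were -0.17 and -0.05. Parp1, a sensor of strand breaks, was at 9.32 and 9.55 on the null arrays against 9.63 and 9.49. Xrcc1, a scaffold of single-strand repair, was at 6.44 and 6.88 against 6.93 and 6.87, and its partner Lig3 at 6.90 and 7.18 against 6.91 and 6.88. All of these overlapped. Ercc2, a helicase of nucleotide excision, was at 5.90 and 5.93 against 6.08 and 5.97, below the wild type. Ercc1, part of the nuclease that cuts beside the lesion, was at 6.33 and 6.57 against 6.33 in LSK/Flt3- and 6.79 in LSK/Flt3+ cells.

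**Figure D4:**
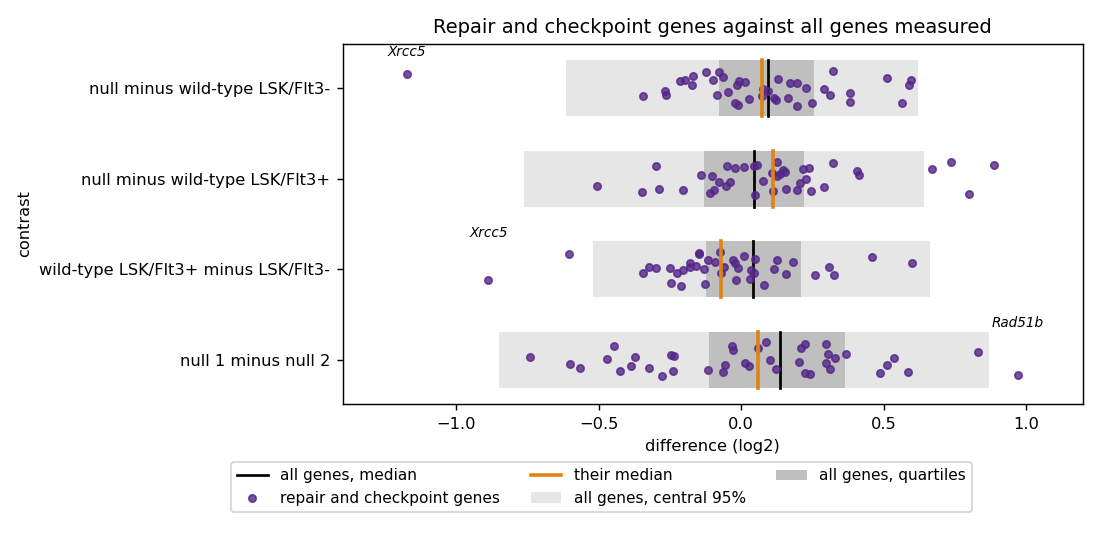
Differences of the members on the log2 scale (points) beside all genes, with light bars for the central 95%, darker bars for the quartiles, black lines for the median of all genes and orange lines for that of the members. Outside the light bars lie Xrcc5 for null minus LSK/Flt3-, Palb2, Blm, Prkdc and Pms2 for null minus LSK/Flt3+, Xrcc5 and Pms2 between the wild-type arrays, and Rad51b between the null arrays.

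Between the wild-type fractions there is 1 array each, so no test was made. Members were lower in LSK/Flt3+ cells in 26 of 41 cases (63.41%), with a median of -0.07, whereas 43.13% of all genes were lower. Among genes with a mean level of at least 6 the shares were 59.46% of 37 members and 52.19% of 8418 genes, so the gap narrowed. No member was 2-fold apart between the wild-type arrays (1.10% of all genes) or between the null arrays (2.82%). The filter on level turned the order of members and all genes for the share below both wild-type arrays, given above. It also turned it for the share higher in null than in LSK/Flt3- cells. That share was 56.1% of members against 65.04% of all genes, but 59.46% against 50.69% with the filter.

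Other repair genes, a separate list of 117 of which 106 were measured, had median differences of 0.02 against LSK/Flt3- and 0.12 against LSK/Flt3+ cells. Clspn was entered in the list under a misspelled symbol, so it was not matched and is not among the 106. Against LSK/Flt3- cells 0 of 106 passed limma's adjusted test (0.0201% of all genes). At an unadjusted limma p under 0.05 there was 1 of 106 (2.40% of all genes). Against LSK/Flt3+ cells 1 of 106 passed the adjusted test (0.316% of all genes), Dntt, the template-free polymerase of antigen receptor joining. Dntt stood at 5.83 and 4.56 on the null arrays, 8.33 in LSK/Flt3- and 10.14 in LSK/Flt3+ cells. It fell by 4.95 on the log2 scale against LSK/Flt3+ cells (limma adjusted p = 0.00275), and its difference of -3.14 against LSK/Flt3- cells missed the threshold (limma adjusted p = 0.149). The early lymphoid markers, a list that itself holds Dntt, had lower means on the null arrays, as given above. No other gene of these lists passed. The differences from LSK/Flt3- cells that were largest in each list were as follows. Among checkpoint genes they were 0.46 for Etaa1, -0.32 for Rhno1 and 0.32 for Atrip. In recombination they were -0.71 for Rpa3, a subunit of the single-strand binding complex, -0.43 for Swi5 and 0.41 for Rad51ap1. Swi5 was at 7.13 and 8.20 on the null arrays against 8.09 in LSK/Flt3- cells, so only replicate 1 was lower. The polymerases of end joining Polm and Poll differed by 0.56 and 0.43. In crosslink repair Fancf differed by 0.54, Fancl by -0.52 and Mad2l2 by -0.38. Mlh3 of mismatch repair differed by 0.25, with only replicate 2 higher (5.84 and 6.42 against 5.88). In excision repair Lig1, a ligase that also joins replication fragments, differed by -0.53, and Mgmt and Neil2 by 0.49 each. Polm, Poll, Fancf and Neil2 stood below a log2 level of 6 on every array. In this comparison the median of all genes was 0.09, but 0.0046 for genes with a mean level of at least 6.

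S phase genes, which the E2F factors act on, had a median difference of 0.007 against LSK/Flt3- cells, with 10 higher and 9 lower. Against LSK/Flt3+ cells 14 were higher and 5 lower, with a median of 0.08, where 56.88% of all genes were higher. Their mean level lay between 8.99 and 9.19 on the 4 arrays. Targets of p53, the factor that checkpoint kinases activate, had a median of 0.18 against LSK/Flt3- and 0.09 against LSK/Flt3+ cells over 16 measured genes, with 10 higher and 6 lower in each. Their mean level lay between 6.44 and 6.60. No gene of either list passed limma's adjusted test.

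Of the 35 members with a window, 16 (45.71%) had a head-to-head neighbour, a gene on the other strand whose start lay within 1000 bases, against 13.16% of protein-coding genes. Both genes were measured in 14 pairs, and in 5 the differences from LSK/Flt3- cells had opposite signs. Most of these differences were smaller than their SE. The share of opposite signs was not computed for the pairs of other genes, so no trait of these pairs is read from it. Xrcc4 and Tmem167, with starts 59 bases apart, were both higher in the null cells, by 0.31 and 0.57. Lig4 and Abhd13, 37 bases apart, differed by 0.29 and -0.18. Palb2 and Dctn5, 95 bases apart, differed by 0.59 and 0.12. No gene of these pairs passed limma's adjusted test.

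**Figure D5:**
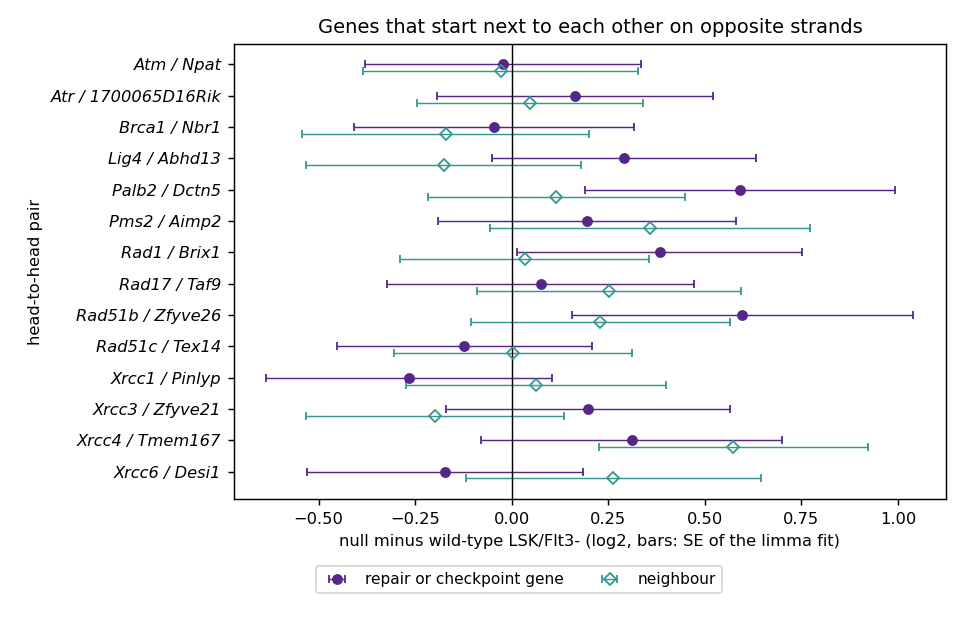
Difference of null minus wild-type LSK/Flt3- cells on the log2 scale for members and their head-to-head neighbours. Points are fitted differences and bars are SE. In 5 of 14 pairs the signs are opposite, as for Lig4 (0.29) and Abhd13 (-0.18).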

How the data were processed

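RNA of 4 sorted cell samples was hybridised to Affymetrix arrays. The authors deposited log2 values per probe set, made with RMA in affy 1.23, per the submitters' processing notes. Array medians of 5.60, 5.30, 5.32 and 5.36 differ, so the scaling those values carry is not settled. This bears on every difference between arrays given here. Null replicate 1 was the highest of the 4 arrays for 47.33% of all genes. Of 35556 probe sets, 21789 had a single gene symbol in the platform annotation, 1621 had several and 12146 were not listed. The highest-mean single-symbol probe set stood for each of 19938 genes. Differences were fitted over the 3 groups jointly with limma 3.58.1 in R 4.3.3 using a trended prior, with 1 residual and 9.01 prior degrees of freedom, so the lone wild-type arrays are assumed to vary like the null arrays. Tests were two-sided, with Benjamini-Hochberg adjustment over all genes at 0.05. The number of arrays limits the precision. Members and lists were chosen with earlier results of these data known. The rule gave full values to about 20 to 30 members with the largest differences in their pathway, and the remaining members' values were added for completeness. Other repair genes are named where they passed the test, were 2-fold apart on both null arrays, or had 1 of the 3 largest differences of their list. Promoter windows come from RefSeq (GRCm38.p6). Alternatives covered scaling, probe set choice, level filter, prior and leaving out null replicates.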

Additional observations from a re-analysis of the deposited data

How the results depend on the processing

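No member passed the adjusted test under any setting that allowed one, and the lowest adjusted p of a member was 0.8435. No paired analysis was possible because each wild-type fraction had only 1 array, and the wild-type labels carry no replicate number. Against LSK/Flt3- cells the count of all genes called, 4, became 2 with quantile normalization, 2 with equal array medians and 25 with a robust prior. Against LSK/Flt3+ cells the count of 63 became 114 with cyclic loess, 99 with equal medians and 114 with a robust prior. It was 22 with a mean level of at least 6, a filter that left 8418 of 19938 genes. With that filter, genes 2-fold apart between the wild-type arrays went from 219 of 19938 to 93 of 8418. Both counts with the filter are thus over fewer genes. The members' median difference from LSK/Flt3- cells, 0.07, became 0.0224 with quantile normalization, 0.0248 with cyclic loess, -0.0436 with equal medians and 0.0288 with the mean of all probe sets, and it ranged from 0.0167 to 0.0744 on leaving out a null replicate. Against LSK/Flt3+ cells it ranged from 0.0293 to 0.1272 on leaving out a null replicate. Equal medians moved the median of all genes against LSK/Flt3- cells from 0.09 to -0.02 and the members higher from 23 to 17 of 41. The median of all genes in that comparison was -0.0025 with quantile normalization and -0.0054 with cyclic loess. With both of these the members' median lay above that of all genes, while it lay below as reported and with equal medians. Of 730 member values under other settings, 47 changed sign. The causes were not tested. Signal over background is not given for these arrays, so dim members such as Fancc have unknown reliability.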
